A study of Mus musculus with 10 samples.

Results

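The genes described here are 9 transcription factors of the osteoblast lineage: the Runt-domain genes Runx1, Runx2 and Runx3, the zinc-finger gene Sp7 (osterix), and the homeobox genes Dlx3, Dlx5, Dlx6, Msx1 and Msx2. They were taken by name, through their Ensembl identifiers, from a table of 40620 genes rather than by a threshold on measured values. All 9 were found and all 9 passed the filter on low counts. RNA was sequenced from MC3T3-E1, a subcloned mouse calvarial pre-osteoblast line that is a single clone, at 5 stages with 2 replicates each, A and B. Subconfluent and confluent cells were kept in growth medium (αMEM with 10% serum), and the later cells were harvested after 24h, 14d or 21d in the same base supplemented with β-glycerophosphate (10 mM) and ascorbic acid (50 µg/ml). No allele or transgene was introduced, and no culture of matched age without the osteogenic supplements is among the samples. The labels do not say whether A and B are separate cultures, so p-values measure the spread between these samples only.

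Runx2 binds DNA together with its partner Cbfb and is the factor without which osteoblasts do not form; Runx1 and Runx3 bind the same letters and are better known from blood cells, cartilage and the nervous system. Sp7 acts after Runx2 in the lineage. Dlx and Msx proteins are homeodomain factors that recognise related AT-rich sites, Dlx proteins mostly activating and Msx proteins mostly repressing bone genes in cultured cells. The Dlx genes lie in the genome as neighbouring pairs that face each other, Dlx1 with Dlx2, Dlx3 with Dlx4, and Dlx5 with Dlx6.

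The sequences around the transcription starts are shown first, because the 3 Runx genes, whose levels moved differently, share a feature there. RefSeq promoter sequences (build GRCm38.p6, 250 bases before and 50 after each start) were at hand for 5 of the 9 genes, with 7 starts in all. In 1 promoter of each Runx gene the letters ACCACA, the reverse complement of the Runx core TGTGGT, occur a pair of times on the strand of the gene, with their first bases 8 apart and 2 bases between them. The 30 bases around the pair are given below, with both copies in capitals, for Runx1 (chr16:92826025-92826054, minus strand), Runx2 (chr17:44814583-44814612, minus strand) and Runx3 (chr4:135120503-135120532, plus strand).
Runx1: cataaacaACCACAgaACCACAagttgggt
Runx2: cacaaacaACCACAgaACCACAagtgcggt
Runx3: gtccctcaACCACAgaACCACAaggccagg
The Runx1 and Runx2 stretches were identical at 27 of 30 bases, Runx1 and Runx3 at 19, and Runx2 and Runx3 at 21. Counting the RefSeq start as 1, the pair lay 29 bases into the transcript of Runx1 and 24 into that of Runx2. In Runx3 it lay at base -134, before the RefSeq start. Such a pair was found in 7 of the 32851 RefSeq mouse promoters of the same length (0.0213%), these 3 among them, whereas a single Runx core on either strand was found in 16.8% of them. The other listed promoter of Runx1 and that of Runx3 held no Runx core, and the counts per gene do not separate the promoters. The spacing was noticed on reading these promoters, and a match of letters says nothing of whether a factor binds there.

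The Runx2 promoter holds a further copy, at base -80, shown in capitals in the 250 bases before the RefSeq start (chr17:44814628-44814877, minus strand). The Msx genes, whose levels parted at 14d, are shown likewise (Msx1 chr5:37824586-37824835 and Msx2 chr13:53472781-53473030, both minus strand), with the homeodomain core TAATTA and the GC box GGGCGG, which can bind zinc-finger factors of the Sp family, searched on both strands.
Runx2: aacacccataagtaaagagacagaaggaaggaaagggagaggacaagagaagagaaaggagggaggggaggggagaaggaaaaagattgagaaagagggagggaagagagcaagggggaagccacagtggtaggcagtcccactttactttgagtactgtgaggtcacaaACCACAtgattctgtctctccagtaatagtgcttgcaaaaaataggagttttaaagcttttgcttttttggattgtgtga
Msx1: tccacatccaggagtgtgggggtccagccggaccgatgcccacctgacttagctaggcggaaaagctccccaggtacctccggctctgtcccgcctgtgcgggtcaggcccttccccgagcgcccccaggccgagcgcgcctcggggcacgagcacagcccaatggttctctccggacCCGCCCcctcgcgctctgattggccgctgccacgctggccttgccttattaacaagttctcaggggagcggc
Msx2: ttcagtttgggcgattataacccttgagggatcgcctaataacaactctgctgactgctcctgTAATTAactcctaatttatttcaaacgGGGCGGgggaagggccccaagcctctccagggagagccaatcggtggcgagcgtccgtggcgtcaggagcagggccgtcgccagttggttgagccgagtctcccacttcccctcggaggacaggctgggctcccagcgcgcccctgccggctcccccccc
Over the full promoters, TAATTA occurred once for Msx2 and not for Msx1, against 5.29% of all promoters. The GC box occurred once in each, against 35.7%. In the GENCODE annotation Runx2 begins further upstream, at chr17:44814797, and so does Msx2, at chr13:53473074. Much of the Runx2 stretch, with the copy at -80, and all of the Msx2 stretch thus lie within those annotated genes. The Msx1 stretch lies before its GENCODE start (chr5:37824583).

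Between 44736156 and 162939333 counts per sample fell on genes. RPKM (reads per unit of gene length and of sequencing depth) is used for levels and for comparisons between genes, and edgeR on the counts, over the 20808 genes that passed the filter, for changes between stages. A gene passed at an adjusted p under 0.05, at any fold. The 24h libraries stand apart: over 16133 genes the log2 ratio of replicate A to B had an SD of 0.68 there and 0.29 to 0.32 elsewhere, and at 24h A was lower than B for long genes (Pearson r of that ratio with log2 length -0.225, against 0.00979 to 0.195). The 3 Runx genes were lower in 24h A than in 24h B and Dlx5 was higher; the part of gene length in these values was not tested. The subconfluent, confluent and 24h libraries carry a pair of index sequences and the 14d and 21d libraries another. Within each pair the index follows the replicate letter, and some lanes held libraries with either pair. Whether the libraries were prepared in these sets is not given. Between the sets, stage and index pair cannot be told apart. In bulk RNA, fewer cells of a kind and less RNA of a gene per cell cannot be told apart either. Of 8 osteoblast marker genes, 6 were higher at 21d than in subconfluent cells, against 27.3% of all genes tested. Ptprc and Cd3e (blood) and Myod1 (muscle) were at 0 in all 10 samples, and the 3 endothelial markers together reached at most 0.0558 RPKM. Of the other muscle markers, Myog was at or near 0. Acta1 was at 42.8 and 43.6 RPKM in subconfluent cells and at 14.3 and 14.4 at 21d. The 8 blood markers summed to 7.56 to 13.1 RPKM, nearly all of it Itgam and Csf1r, with the highest sum in 24h A. The 5 fat-cell markers summed to 2.83 to 6.87 RPKM, mostly Cebpa, with Adipoq and Plin1 at or near 0. The cartilage genes Sox9 and Col2a1 were present in every sample, with Sox9 at 12.6 to 36.1 RPKM and Col2a1 at 33.1 to 210 RPKM. The 5 cartilage markers together summed to 174 to 176 RPKM in subconfluent, 89.3 to 97.7 in confluent, 45.7 to 62.8 in 24h, 234 to 241 in 14d and 111 to 119 in 21d samples, of which Acan and Matn1 were at or near 0. These levels moved with stage beside those of the 9 genes, and their part in the results was not tested.

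Across the 5 stages 8 of the 9 genes passed the F test, where 48.9% of all genes tested passed. Dlx5 did not (adjusted p = 0.12), although it passed with the 24h samples left out, when 70.6% of all genes passed. Between the ends of the series, 21d against subconfluent, all 9 passed: Runx2, Runx3, Sp7 and Dlx3 were higher (4 of 9, against 27.3% of all genes) and Runx1, Dlx5, Dlx6, Msx1 and Msx2 were lower (5 of 9, against 23.5%). The median log2 change of the 9 was -0.38, and that of all genes tested was 0.04.

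**Figure D1:**
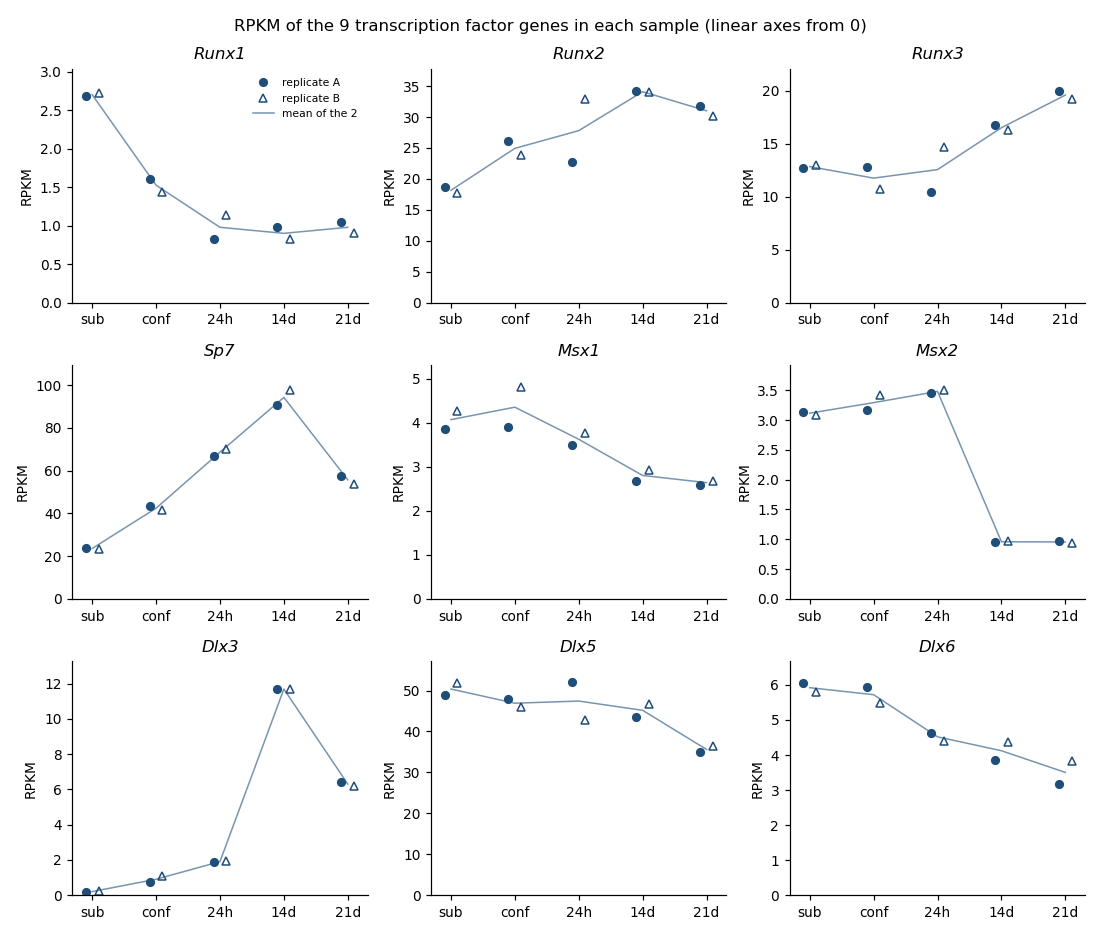
RPKM (y axis, linear from 0) of each of the 9 genes at the 5 stages (x axis: sub, subconfluent; conf, confluent; then 24h, 14d and 21d). Filled circles are replicate A, open triangles replicate B and the line joins the means of the 2. Sp7 and Dlx3 peaked at 14d, Runx1 fell early, Msx2 fell between 24h and 14d, and the Runx genes differed between the replicates at 24h.

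Runx2, the master gene of the lineage, was at 18.7 RPKM in subconfluent A and 17.6 in B, 26.0 and 23.8 in confluent cells, 22.7 and 32.9 at 24h, 34.2 and 34.0 at 14d, and 31.8 and 30.2 at 21d. Every confluent and later sample lay above both subconfluent samples. The 24h samples spanned the confluent ones. The rise from subconfluent to 21d was 0.89 on the log2 scale (SE 0.14, adjusted p = 0.0016), and no single step between successive stages passed. The nearest was the step from 24h to 14d, at 0.43 (SE 0.14, adjusted p = 0.078). It passed in DESeq2 (0.42, adjusted p = 0.024), where 23.2% of all genes passed that step, against 17.3% in the main fit. Over the alternatives it ran from 0.23 to 0.61, the highest without 24h replicate B, the replicate with more Runx2. The first step was also 0.43 (SE 0.14, adjusted p = 0.17). It passed in DESeq2 too (0.42, adjusted p = 0.045), beside 9.83% of all genes, against 3.28% in the main fit. With only the 2 groups compared it passed (0.45, adjusted p = 0.045), beside 5.86%. Without the 24h samples it passed as well (0.44, adjusted p = 0.0080), beside 16.5%. The range of Runx2 over all stages was thus small, 1.88-fold between the highest and the lowest stage mean.

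Runx1 ran the other way. It was at 2.68 and 2.72 RPKM in subconfluent cells, 1.61 and 1.44 in confluent cells, 0.823 and 1.14 at 24h, 0.980 and 0.821 at 14d, and 1.05 and 0.911 at 21d. The subconfluent, confluent and later samples formed 3 bands that did not overlap, and the samples of 24h, 14d and 21d overlapped one another. The first step was a fall of 0.85 (SE 0.15, adjusted p = 0.030), and that call was lost in 11 alternatives, among them each fit that left out a subconfluent or confluent replicate (adjusted p 0.101 to 0.244). From subconfluent to 21d the log2 change was -1.35 (SE 0.15, adjusted p = 2.9e-04). In the 2 steps after 24h the log2 differences were 0.01 and 0.05, neither past the threshold.

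Runx3 kept its level through the first 3 stages and was higher late. Its values were 12.7 and 13.0 RPKM in subconfluent cells, 12.8 and 10.7 in confluent cells, 10.4 and 14.7 at 24h, 16.7 and 16.3 at 14d, and 20.0 and 19.2 at 21d. All 14d and 21d samples lay above all earlier ones. The change from subconfluent to 21d was 0.73 (SE 0.14, adjusted p = 0.0039). The step from 24h to 14d was 0.53 (SE 0.14, adjusted p = 0.040), and it was past the threshold neither without 24h replicate A (0.34, adjusted p = 0.053) nor in 14 other alternatives. The values of the 3 paralogs thus differed in timing. Runx1 was lower in every sample after the subconfluent stage, and its samples from 24h on overlapped. Runx2 was higher in every sample after the subconfluent stage, and Runx3 lay above all earlier samples from 14d on.

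Within the family, Runx2 made up 53.8% ± 1.35 (SD, n = 2) of the summed Runx RPKM in subconfluent cells, 67.2% ± 0.406 at 24h and 60.1% ± 0.102 at 21d. Runx3 held 38.1% ± 1.16, 30.5% ± 0.342 and 38.0% ± 0.224 at the same stages. Runx1 held 8.02% ± 0.194, 2.38% ± 0.0637 and 1.90% ± 0.122. The mean ratio of Runx2 to Runx1 was 6.72 in subconfluent cells, 16.3 in confluent cells, 28.3 at 24h, 38.1 at 14d and 31.8 at 21d, and it differed between the stages (exact permutation test over the 10 samples, two-sided, p = 0.0011, the smallest that the arrangements of the samples allow; adjusted over 6 ratios 0.0032). The ratio of Runx2 to Runx3 rose from 1.41 to 2.21 at 24h and was back at 1.58 at 21d (exact permutation p = 0.0074, adjusted 0.0089). A ratio within 1 sample is not affected by library size, and the Runx2 to Runx3 ratio was close in the 24h replicates (2.18 and 2.23) although each gene differed between them.

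**Figure D2:**
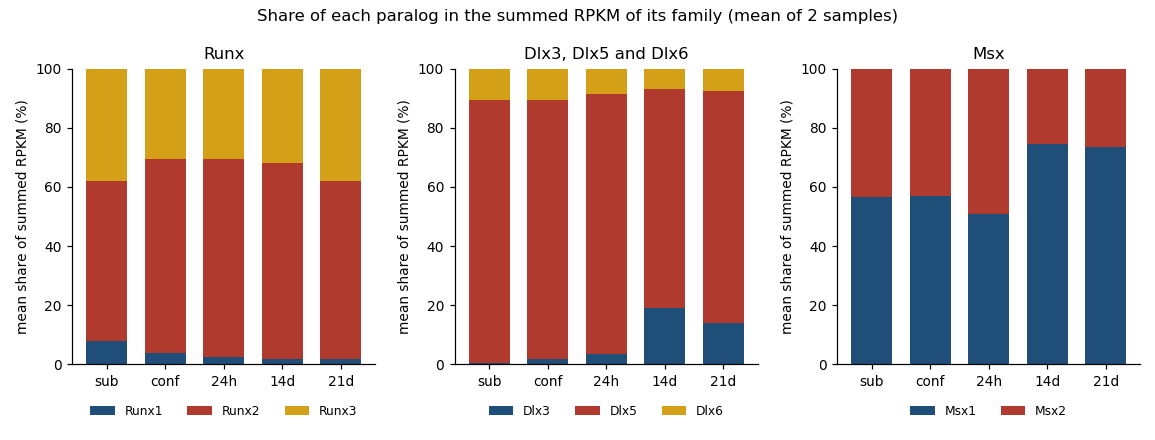
Mean share (y axis, percent of the summed RPKM of the genes shown, mean of 2 samples) of each paralog at the 5 stages (x axis: sub, subconfluent; conf, confluent), for the Runx genes, Dlx3 with Dlx5 and Dlx6, and the Msx genes. Runx1 shrank from 8.02% to 1.90%, Dlx3 grew from 0.358% to 19.2% at 14d, and Msx2 fell to 25.5% at 14d.

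Sp7, the zinc-finger factor that acts downstream of Runx2, had the plainest course. Its level was 23.8 and 23.3 RPKM in subconfluent cells, 43.4 and 41.5 in confluent cells, 67.0 and 70.4 at 24h, 90.9 and 97.7 at 14d, and 57.5 and 54.0 at 21d. No stage overlapped another. Each of the 4 steps passed the test: 0.82 (SE 0.09, adjusted p = 0.0037), 0.78 (SE 0.09, adjusted p = 0.0045), 0.59 (SE 0.09, adjusted p = 0.0055) and, from 14d to 21d, a fall of 0.83 (SE 0.09, adjusted p = 0.0014). The first step missed the threshold without either subconfluent replicate (adjusted p 0.061 and 0.066). The 21d level was still above the subconfluent one by 1.36 (SE 0.09, adjusted p = 2.2e-05). The ratio of Sp7 to Runx2 was 1.30 in subconfluent cells, 2.77 at 14d and 1.80 at 21d (exact permutation p = 0.0074, adjusted 0.0089), so that it rose up to 14d and was lower at 21d. At 24h that ratio was 2.95 in A and 2.14 in B.

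Dlx3, which is known for its part in bone, tooth and skin, had the widest range of the 9 genes, 57.8-fold between the highest and the lowest stage mean. Its values were 0.194 and 0.211 RPKM in subconfluent cells, 0.734 and 1.07 in confluent cells, 1.87 and 1.94 at 24h, 11.7 and 11.7 at 14d, and 6.41 and 6.20 at 21d. Again no stage overlapped another. The subconfluent values rest on 52 and 17 counts, and the 14d values on 2747 and 1003. The steps were 2.15 (SE 0.19, adjusted p = 0.0023), 1.15 (SE 0.17, adjusted p = 0.013), 2.75 (SE 0.18, adjusted p = 1.9e-04) and a fall of 0.97 (SE 0.17, adjusted p = 0.012) on the log2 scale. The last of these missed the threshold in each fit that left out a 14d or 21d replicate (adjusted p 0.079 to 0.099), with values from -0.99 to -0.95. From subconfluent to 21d the log2 change was 5.09 (SE 0.21, adjusted p = 4.3e-06), a 34.0-fold difference.

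Dlx5, a factor that can activate both Runx2 and Sp7, had the highest RPKM of the 9 in subconfluent and confluent cells and hardly moved. It was at 49.0 and 51.7 RPKM in subconfluent cells, 47.9 and 45.9 in confluent cells, 52.1 and 42.8 at 24h, 43.6 and 46.7 at 14d, and 34.9 and 36.3 at 21d. Both 21d samples lay below all others, and the 24h samples spanned those of the other 3 early stages. The change from subconfluent to 21d was -0.38 (SE 0.13, adjusted p = 0.041), and it missed the threshold in 11 of the alternatives. From 14d to 21d the log2 difference was -0.42 (adjusted p = 0.095), and it passed when the 24h samples were left out (adjusted p = 0.0043), as 26.6% of all genes then did, against 9.72% with them.

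Dlx6, its neighbour on chromosome 6, stood at 6.04 and 5.80 RPKM in subconfluent cells, 5.95 and 5.49 in confluent cells, 4.64 and 4.40 at 24h, 3.87 and 4.37 at 14d, and 3.17 and 3.83 at 21d. All samples from 24h on lay below all earlier ones. The fall from subconfluent to 21d was 0.64 on the log2 scale (SE 0.15, adjusted p = 0.0092), and no single step passed. Without 21d replicate A it was 0.51 and past the threshold no longer (adjusted p = 0.066). Dlx5 was 8.20 to 11.0 times as abundant as Dlx6 by stage mean, and that ratio did not differ between the stages past the threshold (exact permutation p = 0.053, adjusted 0.053). The ratio of Dlx5 to Dlx3, in contrast, dropped from 249 to 3.86 at 14d and was 5.65 at 21d (exact permutation p = 0.0011, adjusted 0.0032).

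The other Dlx genes were read for comparison, and between the ends of the series both genes of a pair moved in the same direction. Dlx1 and Dlx2, 9426 bases apart on chromosome 2, were at 8.62 to 8.72 and 10.2 to 10.6 RPKM in subconfluent cells, far above Dlx3, and at 2.72 to 3.22 and 3.23 to 3.74 RPKM at 21d. Their log2 changes between these stages were -1.43 (SE 0.27, adjusted p = 0.0038) and -1.46 (SE 0.13, adjusted p = 8.7e-05). At 24h Dlx1 was 3.13 in A and 6.43 in B. Dlx4, 15150 bases from Dlx3 on chromosome 11, had a log2 change of 1.83 (SE 0.30, adjusted p = 0.0019), but at levels of 0.110 to 0.461 RPKM and 9 to 81 counts, and unlike Dlx3 it had no lower level at 21d (0.416 and 0.461) than at 14d (0.369 and 0.345). Dlx5 and Dlx6 lie 9236 bases apart. Over the 10 samples, which share library and depth between genes, Pearson's r of log2 CPM (counts scaled to TMM library size) was 0.871 for Dlx1 with Dlx2, 0.891 for Dlx3 with Dlx4 and 0.662 for Dlx5 with Dlx6, as a description. Of the 7 other Dlx, Msx and Sp genes listed, Msx3, Sp6 and Sp9 were too low to test. At 21d Dlx4 was higher than in subconfluent cells, and Dlx1, Dlx2 and Sp8 were lower. These are 1 and 3 of 4 tested, against 27.3% and 23.5% of all genes. The median log2 change of the 4 was -1.45.

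**Figure D3:**
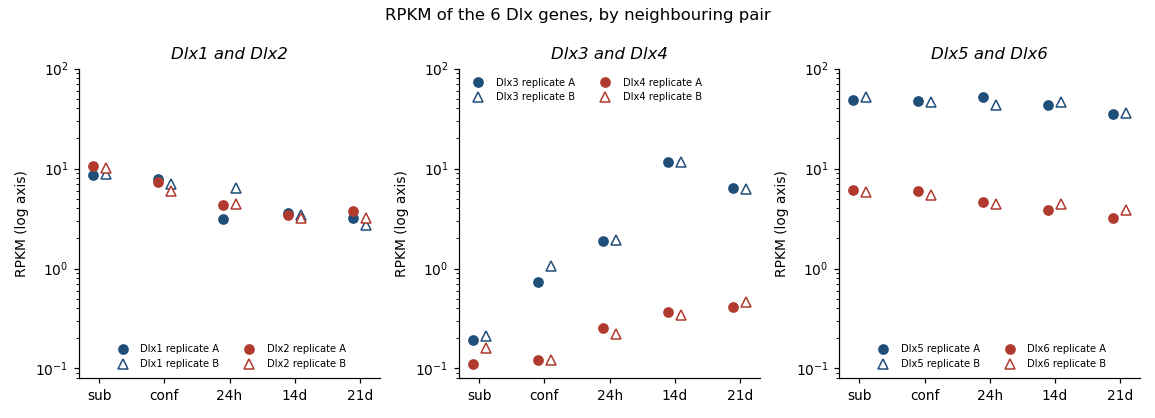
RPKM (y axis, log scale) of the 6 Dlx genes at the 5 stages (x axis: sub, subconfluent; conf, confluent), 1 panel for each neighbouring pair, filled circles for replicate A and open triangles for replicate B. Dlx1 and Dlx2 fell from about the same level, Dlx3 rose far above Dlx4, and Dlx5 stayed 8.20 to 11.0 times above Dlx6.

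Msx1 and Msx2 began close together and parted. Msx2 was at 3.14 and 3.09 RPKM in subconfluent cells, 3.17 and 3.42 in confluent cells, 3.45 and 3.51 at 24h, 0.946 and 0.971 at 14d, and 0.968 and 0.942 at 21d. The 6 earlier samples and the 4 later ones formed a pair of bands with nothing between. The step from 24h to 14d was a fall of 1.73 (SE 0.11, adjusted p = 2.1e-04), and the steps before and after it did not pass (adjusted p 0.38 to 0.88). This is the step at which the pair of index sequences also changes.

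Msx1 was at 3.87 and 4.27 RPKM in subconfluent cells, 3.90 and 4.81 in confluent cells, 3.49 and 3.76 at 24h, 2.68 and 2.93 at 14d, and 2.59 and 2.69 at 21d. The 14d and 21d samples again lay below all earlier ones, but by less. No single step passed, and the change from subconfluent to 21d was -0.51 (SE 0.14, adjusted p = 0.018), past the threshold no longer without subconfluent replicate B or either 21d replicate (adjusted p 0.070 to 0.089). The ratio of Msx2 to Msx1 was 0.768 in subconfluent cells, 0.961 at 24h, 0.342 at 14d and 0.362 at 21d (exact permutation p = 0.0074, adjusted 0.0089). With the 24h samples left out its adjusted p was 0.067.

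**Figure D4:**
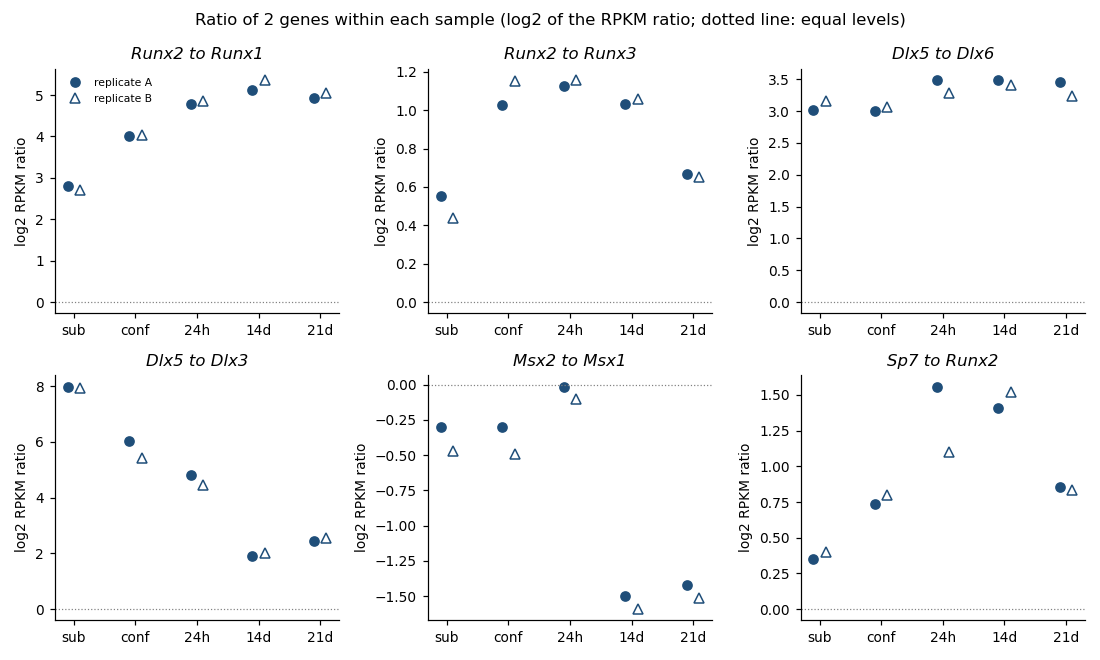
Log2 of the RPKM ratio of 2 genes within each sample (y axis, each panel on its own scale) at the 5 stages (x axis: sub, subconfluent; conf, confluent), filled circles for replicate A and open triangles for replicate B. Dlx5 to Dlx3 dropped from 249-fold to 3.86-fold at 14d, Runx2 to Runx1 climbed, Msx2 to Msx1 fell between 24h and 14d, and Runx2 to Runx3 rose and came back.

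The steps can also be read by stage. From subconfluent to confluent, 2 of the 9 genes were higher, Sp7 and Dlx3 (1.95% of all genes tested were higher), and 1 was lower, Runx1 (1.34%). Without either subconfluent replicate only Dlx3 passed, beside 0.557% and 0.766% of all genes. After 24h in osteogenic medium 2 were higher, again Sp7 and Dlx3 (3.59%), and none was lower (1.57%), although Runx1 was near the threshold (-0.56, adjusted p = 0.085) and passed in DESeq2. At an unadjusted p under 0.05 Runx1 alone was lower. When only the confluent and 24h samples were fitted, 0 of the 9 passed (adjusted p 0.297 for Sp7 and 0.367 for Dlx3), as did 0 of all 19562 genes then tested. Without 24h replicate B, 4 of the 9 passed, Runx1 lower and Sp7, Dlx3 and Dlx5 higher, beside 39.9% of all genes, against 5.15% in the fit to all samples. From 24h to 14d, 3 were higher, Runx3, Sp7 and Dlx3 (9.08%), and 1 was lower, Msx2 (8.2%), of which Dlx3 and Msx2 alone passed without 14d replicate B, beside 3.85% of all genes. From 14d to 21d, 0 were higher (3.77%), also at an unadjusted p under 0.05 and in DESeq2, and 2 were lower, Sp7 and Dlx3 (5.95%). When only the 14d and 21d samples were fitted, Runx3 was higher (0.21, adjusted p = 0.025) and Dlx5 lower as well, beside 30.5% of all genes, and without 24h replicate B Runx2 and Dlx5 were lower as well, beside 24.1%, against 9.72% in the fit to all samples. Sp7 and Dlx3 were thus the genes that passed at each of the 4 steps, both upwards to 14d and downwards after it.

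From confluent cells to 14d, 4 of the 9 were higher, Runx2, Runx3, Sp7 and Dlx3 (16.8% of all genes), and 2 were lower, Runx1 and Msx2 (15.3%). That split differed with the scaling, and for Msx1 with other settings too. With library size alone, and with limma on the RPKM values, 2 were higher (Sp7 and Dlx3) and 4 were lower (Runx1, Dlx6, Msx1 and Msx2). Msx1 was near the threshold in the main fit (-0.42, adjusted p = 0.052). It passed in DESeq2 (-0.46, adjusted p = 0.017), where 34% of all genes passed, against 32.1% in the main fit. It also passed with DESeq2 size factors (adjusted p = 0.045), with the replicate block (0.049) and without the 24h samples (0.027, beside 52.7% of all genes). It did not pass in every alternative. The values for Runx2 and Runx3 were 0.67 and 0.71 on the log2 scale with TMM (a scaling that evens out the bulk of genes) and 0.44 and 0.48 with library size alone, where the median of all genes tested was -0.20. Without confluent replicate B, 3 of the 9 passed, Sp7, Dlx3 and Msx2, beside 19.4% of all genes.

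**Figure D5:**
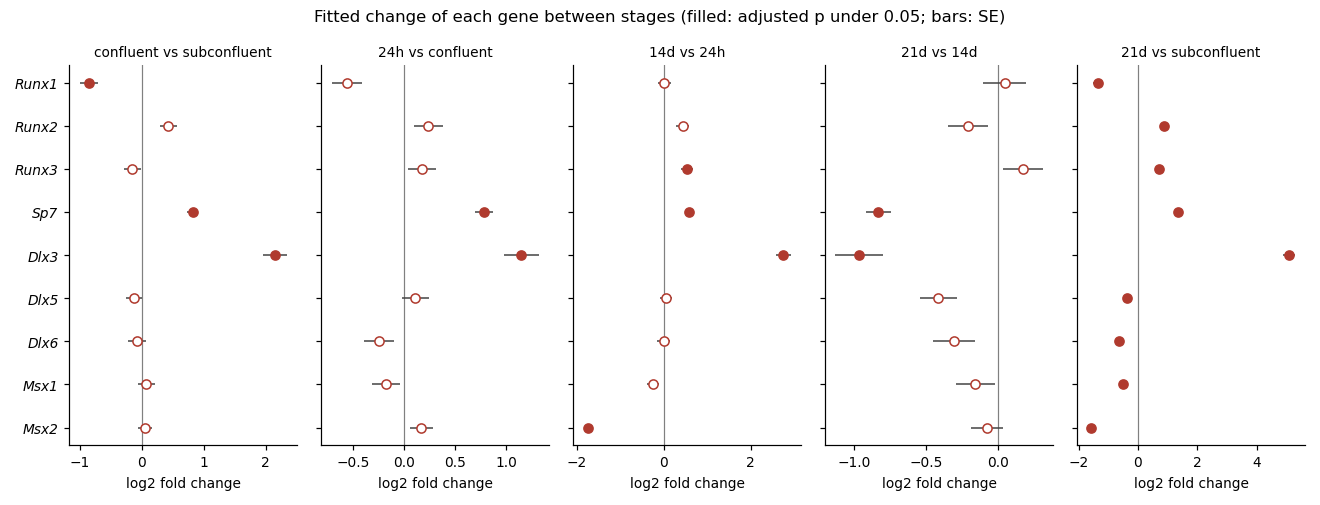
Log2 fold change (x axis, each panel on its own scale) of the 9 genes (y axis) in the 4 successive steps and between the ends, fitted in edgeR, with bars for the SE. Filled circles are genes with an adjusted p under 0.05. Sp7 and Dlx3 are filled in every panel, Msx2 is filled and low at 14d against 24h, and all 9 are filled in 21d against subconfluent.

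By level per gene length, the order in subconfluent and confluent cells was Dlx5, Sp7, Runx2, Runx3, Dlx6, Msx1, Msx2, Runx1 and Dlx3, with no overlap between neighbours. Sp7 and Dlx5 changed places at 24h, when Sp7 stood at 68.7 ± 2.43 RPKM and Dlx5 at 47.4 ± 6.59 (SD, n = 2 each). Dlx3 rose from the ninth place to the eighth at 24h and to the fifth at 14d and 21d, passing Runx1 first and then both Msx genes and Dlx6. Runx2 and Runx3 kept the third and the fourth place at every stage. Neighbours that overlapped were Msx1 and Msx2 at 24h, and Msx2 and Runx1 at 14d and 21d. The order rests on the deposited gene lengths. These are shorter than the exon bases in GENCODE vM21 for Dlx5 (1420 against 2263), Dlx6 (1774 against 2375) and Sp7 (2904 against 3398). The places of Dlx5 against Sp7 and of Dlx6 against Msx1 may depend on the lengths used, which was not tested.

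The genes around these factors were read from lists. Among partners and coactivators of Runx proteins, Cbfb, the subunit that Runx proteins need to bind DNA well, fell from 59.6 and 56.4 RPKM in subconfluent cells to 27.5 and 26.9 at 21d (log2 change -0.98, SE 0.11, adjusted p = 3.2e-04). The histone acetyltransferase gene Kat6b was higher (1.34, SE 0.44, adjusted p = 0.036). At 24h Kat6b was at 0.628 RPKM in A and 2.09 in B. Between the ends of the series Cbfb was thus lower and Runx2 higher, each without overlap between the samples of the 2 stages.

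Of 14 genes whose products restrain Runx2, 13 were tested, 2 were higher and 5 lower at 21d, with a median of -0.26. These 7 of 13 are near the share of all genes that passed in this comparison, 50.7%. Hand2 was at 0 in every sample. Twist1, which binds the Runx2 protein, was not past the threshold, at 42.2 and 47.4 RPKM in subconfluent and 38.4 and 38.5 at 21d (log2 difference -0.11, SE 0.12, adjusted p = 0.50). Twist2 fell from 1.82 and 2.22 to 0.224 and 0.372 RPKM (-2.59, SE 0.41, adjusted p = 0.0015). The ubiquitin ligase gene Smurf1 (-0.88, adjusted p = 0.0018), the Notch effector gene Hes1 (-1.04, adjusted p = 0.017) and the corepressor genes Tle3 (-0.45, adjusted p = 0.0094) and Tle4 (-0.50, adjusted p = 0.011) were lower, too. Zfp521 (1.10, adjusted p = 4.4e-04) and Tle1 (0.40, adjusted p = 0.011) were higher.

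Of 12 bone genes known as targets of Runx2 and Sp7, 11 were tested. Of these, 8 were higher at 21d than in subconfluent cells (27.3% of all genes) and 1 was lower (23.5%). Their median log2 change was 3.43. Osteocalcin (Bglap), a late matrix protein, was at 1.11 and 3.89 RPKM in subconfluent cells, 12.9 and 16.7 in confluent cells, 39.3 and 21.3 at 24h, 1197 and 1034 at 14d, and 1087 and 994.7 at 21d. Its near-identical copy Bglap2 shares reads with it, so that the split between them is uncertain. Bone sialoprotein (Ibsp) was at 20.0 and 11.8 RPKM in subconfluent cells, 196 and 205 in confluent cells, 959 and 1124 at 24h, 4081 and 4374 at 14d, and 2570 and 2509 at 21d. Ibsp therefore had its highest level at 14d like Sp7 and Dlx3, whereas Bglap stayed near its 14d level.

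Alkaline phosphatase (Alpl), the enzyme that frees phosphate for mineral, was also highest at 14d, at 24.0 and 27.4 RPKM, and at 10.1 and 9.48 at 21d (against subconfluent 2.41 on the log2 scale, SE 0.12, adjusted p = 1.0e-05). Mmp13, a collagenase gene, had its highest values at 21d, 83.8 and 98.1 RPKM. The osteocyte genes Phex and Dmp1 were higher at 21d by 5.03 and 4.32, with Phex highest at 14d and Dmp1 at 21d, and Spp1 was higher by 2.02. Vdr, the vitamin D receptor gene, was lower (-1.34, SE 0.17, adjusted p = 5.3e-04). The collagen genes Col1a1 and Col1a2 were highest at 14d and did not pass between the ends (adjusted p 0.98 and 0.67), and Sost was too low to test. From 24h to 14d, 10 of the 11 were higher, with a median of 2.15, where 9.08% of all genes tested were higher.

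Likeness was taken over the 3817 genes that averaged 5 CPM or more and spanned at least 1 on the log2 scale. By this measure the gene whose course over the 10 samples was most like that of Sp7 was Alpl (Pearson r 0.9953), then Slc43a2 and Tmie. For Dlx3 they were Ncf1 (0.9973), Gas7 and Col11a2. For Runx1 they were Socs5 (0.9833), Tgfb2 and Ajuba, for Runx2 Fgfr3 (0.9861) and Chst15, and for Runx3 Pura (0.9961), Kmt5b and Foxo1. For Msx2 they were Fabp5 (0.9932), Ccn3 and Gm14328, and for Msx1 Plekho1 (0.9586), Rrp9 and Pa2g4. Dlx5 (Nrm, 0.8682, then Rras2 and Lockd) and Dlx6 (Me1, 0.9531, then Cenpu and Pold3) had looser matches among these candidates. By stage mean of RPKM, Dlx5 spanned 1.41-fold and Dlx6 1.69-fold, less than a candidate had to span. Genes as flat as these were thus left out of the search. Among the 9 themselves the highest r was 0.955, for Runx2 with Dlx3, then 0.926 for Sp7 with Dlx3 and 0.921 for Runx2 with Sp7, and the lowest was -0.935, for Runx3 with Msx2. These are descriptions over samples that share library and depth.

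Gene positions are from GENCODE on GRCm38. Runx1 spans chr16:92601466-92826149, Runx2 chr17:44495987-44814797, Sp7 chr15:102356606-102367182, Dlx5 chr6:6877805-6882085, Msx1 chr5:37820485-37824583 and Msx2 chr13:53466884-53473074 on the minus strand. Runx3 spans chr4:135120652-135177990, Dlx3 chr11:95120119-95125296 and Dlx6 chr6:6863334-6868568 on the plus strand. Exons of 3 of the 9 genes overlap those of a gene on the other strand: Runx1 with Gm26626 over 106 bases, Runx2 with Runx2os1 over 519 bases, and Dlx6 with Dlx6os2 over 104 bases. Whether the counting used strand is not given in the sources used here, so reads in those stretches cannot be told apart. Runx2os1 had 51 to 222 counts per sample and Gm26626 18 to 358, against 4673 to 26288 for Runx2 and 311 to 3175 for Runx1. The count ranges of Gm26626 and Runx1 overlap, but over samples of unlike depth, and these genes were not compared within a sample. The highest count of Runx2os1 was far below any count of Runx2.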

How the data were processed

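RNA of MC3T3-E1 cells was sequenced as 51 bp paired-end reads. Per the labels, the submitters' processing notes name FastQC, TopHat2 2.0.9, R 3.0.1 and the build mm10; the counting tool, annotation and strand setting are not given in the sources used here. The authors deposited whole-number read counts per Ensembl gene without normalization, and RPKM values, which the authors made from those counts, the gene lengths and a rounded read total of 31000000 to 108000000 per library. Gene lengths enter the ratios and the limma fits through RPKM. Of the 40620 genes, 40603 have an RPKM row, and Tle2 has no RPKM value. A pair of libraries (14d A and 21d B) were run in 2 lanes each, and their merged columns were taken.

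Groups and replicate letters came from the sample titles, and identifiers were matched to symbols in GENCODE vM21 (39547 of 40620). Counts of all 10 samples were fitted together with edgeR 4.0.16 (R 4.3.3): filterByExpr (20808 genes kept), TMM, the quasi-likelihood test, 6 comparisons and an F test over 5 stages, with Benjamini-Hochberg adjustment over all genes tested and a threshold of 0.05. SE was taken as the log2 fold change over the root of F. Ratios were log2 of (RPKM + 0.1), tested by an exact permutation test over all arrangements of the samples and adjusted over 6 ratios; a comparison of 2 samples with 2 cannot go below p = 0.33. The fits were tested on simulated data. The named genes are the 9 factors, the members of the lists that passed or were at 0, genes with exons over theirs, and the 3 genes most like each by Pearson r of log2 CPM (prior count 2). Some of the genes this rule names are not reported here.

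The 9 genes and all gene lists were chosen with earlier results of these data known. The correlations of the A minus B deviations between stages ran from -0.331 to 0.318, which does not settle whether the letters pair samples. The main fit took no account of the letters. Alternatives were DESeq2 1.42.0 and its size factors, library size alone, other filters, limma 3.58.1 on log2(RPKM + 1) and log2(RPKM + 0.1), a 2-fold threshold, only the groups compared, no 24h samples, a replicate block, each sample left out, other pseudocounts, and, added after seeing the data, the sum of the 2 lanes.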

Additional observations from a re-analysis of the deposited data

How the results depend on the processing

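Of 1116 recomputed changes of a gene in a comparison, 988 kept direction and side of the threshold, 66 lost it, 31 gained it and 31 turned sign, and 0 of those that turned had passed. With a 2-fold threshold 1 gene passed from subconfluent to confluent, 1 from confluent to 24h, 2 from 24h to 14d, 0 from 14d to 21d, 4 from subconfluent to 21d, and 3 from confluent to 14d. With only the compared groups, hence 4 samples, 0 passed from confluent to 24h, 2 from 24h to 14d and 4 from 14d to 21d. Leaving out 1 sample gave 1 to 4, 2 to 4, 2 to 5, 1 to 4, 6 to 9 and 3 to 7 for the 6 comparisons in that order and 6 to 9 for the F test, the lone sample of its stage being assumed to vary like the others. The replicate block gave 2, 2, 3, 2, 8, 6 and 7, and with it the ratio of Dlx5 to Dlx6 passed (log2 change 0.25, adjusted p 0.0167). Without 1 sample that change was 0.14 to 0.35, and it passed without 21d replicate A (adjusted p 0.0497). Without the 24h samples Msx2 to Msx1 (-1.003) lost its call (adjusted p 0.067), and the cause was not tested.

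Changes that turned sign were small. Runx1 in 14d against 24h was -0.10 with library size alone, -0.060 with no filter, -0.022 with only the 2 groups, and -0.055 and -0.098 with limma. Dlx5 was -0.034 in 24h against confluent with library size alone, in 14d against 24h -0.033 with library size alone, -0.031 with no filter, and -0.063 and -0.064 with limma, and in 14d against confluent -0.068 with library size alone and -0.054 and -0.055 with limma. Dlx6 in 14d against 24h was 0.014 with at least 10 counts in every sample, and Msx2 in 21d against 14d was 0.0065 with library size alone. Without 1 sample, Msx1 and Msx2 in confluent against subconfluent ran from -0.090 to 0.22 and from -0.0032 to 0.11, Runx3 and Dlx5 in 24h against confluent from -0.012 to 0.36 and from -0.094 to 0.31, Runx1, Dlx5 and Dlx6 in 14d against 24h from -0.16 to 0.16, -0.18 to 0.25 and -0.15 to 0.092, and Runx1 in 21d against 14d from -0.061 to 0.16. With library size alone the median of all genes was -0.13 from confluent to 24h, -0.12 from subconfluent to 21d and -0.20 from confluent to 14d. Among the tested Runx, Dlx, Msx and Sp genes, the lowest counts are those of Dlx4 (9 to 81 per sample) and of Dlx3 in subconfluent cells (52 and 17).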
